A study of Mus musculus with 2 samples.

Results

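The LIM and PDZ-LIM cytoskeletal genes examined here were Fhl1, Fhl2, Fhl3, Pdlim1, Pdlim2, Pdlim3, Pdlim4, Pdlim5, Pdlim7 and Csrp1. Every row of the ATAC-seq peak table that carries 1 of these 10 symbols was taken, which gave 59 of 63316 peaks and all 10 genes among 16934 genes with an assigned peak. Open chromatin was measured in primary cardiac fibroblasts from mouse heart that were treated with TGF-β, either as the control labelled NC or together with siRNA against Piezo2 (siPiezo2), a mechanically gated cation channel. TGF-β was therefore common to both libraries, and no library without it was analysed here. The labels give neither a strain, an age nor the number of hearts. The description of the series as a whole speaks of a Tet3 knockout made with Cre virus instead, whereas the study describes its Piezo2 ATAC-seq as siRNA against Piezo2 compared with scrambled siRNA under TGF-β, as the labels of the samples do for siPiezo2. The groups used here rest on those labels. The labels enter the molecule as total RNA, while the study's methods start from minced tissue and name a different library kit. The study's figure legend instead gives transfected primary cardiac fibroblasts, and its reagent list holds another ATAC-seq kit than its methods. These conflicts were not settled. There was 1 library per group, so no difference below has a replicate check, and no test of the conditions was made.

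LIM domains are zinc-binding modules through which proteins bind other proteins, and many LIM proteins sit on actin stress fibres, in focal adhesions or at the Z disc of striated muscle. The FHL proteins consist almost wholly of LIM domains and move between these structures and the nucleus, where they act as cofactors of transcription. The PDZ-LIM proteins join a PDZ domain, which binds α-actinin, to LIM domains at the other end of the protein, and Csrp1 encodes a cysteine- and glycine-rich LIM protein of smooth muscle and other contractile cells. In fibroblasts such proteins belong to the contractile apparatus that TGF-β builds up. In the annotation that the peak table carries, 9 of the 10 genes were assigned to the Z disc, 8 to organization of the actin cytoskeleton, 7 to stress fibres and 6 to heart development.

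Promoter sequence is shown first, for member start sites that hold one of the searched motifs or carry the strongest start peaks. RefSeq windows of assembly GRCm38.p6, from 250 bases before to 50 after each start, were found for 9 of the 10 genes (13 windows, Pdlim2 was not matched) and searched on both strands. The searched letters were the CArG box of serum response factor in its strict form, with 6 bases of A or T between CC and GG, the TEAD site GGAATG and the AP-1 site TGANTCA. A strict CArG box reads as such on either strand. The 250 bases before the start are given 5′ to 3′ with matches in capitals. The first Fhl2 window lies at chr1:43163962-43164211 on the minus strand, and its start is that of the transcript ENSMUST00000008280, over which the Fhl2 start peak described below lies. The second Fhl2 window lies upstream of it at chr1:43196762-43197011, also on the minus strand. The Fhl1 window lies at chrX:56779433-56779682 on the plus strand, and its start is 40 bp away from that of ENSMUST00000114772. No member peak lies at the upstream Fhl2 start or at this Fhl1 start. These 3 are shown because they hold a CArG box.
Fhl2, start of ENSMUST00000008280: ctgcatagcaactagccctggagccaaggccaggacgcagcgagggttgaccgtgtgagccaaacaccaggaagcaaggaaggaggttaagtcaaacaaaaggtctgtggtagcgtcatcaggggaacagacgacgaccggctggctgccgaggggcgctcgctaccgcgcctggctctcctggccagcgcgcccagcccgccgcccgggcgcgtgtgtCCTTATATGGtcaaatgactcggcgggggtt
Fhl2, upstream start: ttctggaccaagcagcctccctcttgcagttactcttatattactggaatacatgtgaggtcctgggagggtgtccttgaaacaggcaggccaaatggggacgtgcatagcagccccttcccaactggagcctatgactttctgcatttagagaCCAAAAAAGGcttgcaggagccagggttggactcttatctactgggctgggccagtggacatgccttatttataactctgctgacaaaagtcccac
Fhl1, start near that of ENSMUST00000114772: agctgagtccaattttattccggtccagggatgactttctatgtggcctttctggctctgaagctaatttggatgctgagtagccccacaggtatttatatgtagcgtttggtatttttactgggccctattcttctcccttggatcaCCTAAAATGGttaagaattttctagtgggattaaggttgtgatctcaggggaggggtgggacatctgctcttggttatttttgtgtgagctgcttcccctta
The Pdlim3 window at chr8:45885237-45885486 on the plus strand is shown because it holds the TEAD letters, and the Pdlim5 window at chr3:142395697-142395946 on the minus strand because Pdlim5 had the strongest start peaks among the members, with none of the searched letters.
Pdlim3, start of ENSMUST00000211190: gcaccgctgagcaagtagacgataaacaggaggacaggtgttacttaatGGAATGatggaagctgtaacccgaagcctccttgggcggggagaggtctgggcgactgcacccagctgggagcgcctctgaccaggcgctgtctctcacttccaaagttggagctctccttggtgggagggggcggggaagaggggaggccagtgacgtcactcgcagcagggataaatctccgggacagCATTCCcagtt
Pdlim5, start of ENSMUST00000058626: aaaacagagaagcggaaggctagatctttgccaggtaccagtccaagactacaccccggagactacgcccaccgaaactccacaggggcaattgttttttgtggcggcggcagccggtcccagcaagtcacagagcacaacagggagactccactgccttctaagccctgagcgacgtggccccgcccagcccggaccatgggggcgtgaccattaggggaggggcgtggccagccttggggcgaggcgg
In the first Fhl2 window the CArG box spans bases -31 to -22 from the start, in the second -96 to -87, and in the Fhl1 window -102 to -93. A CArG box was thus found in 3 of the 13 member windows and in 1.63% of all 32851 windows. The TEAD letters were found in 1 member window, that of Pdlim3, on the plus strand at -201 to -196 and on the minus strand at -11 to -6, and in 14.7% of all windows. The AP-1 letters were found in 0 member windows and in 7.81% of all. The matched stretches do not overlap each other. A match describes letters and not a bound site, and the peak table uses another assembly, so that no sequence was read at a peak.

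The libraries held 4615335 reads (NC) and 2754046 reads (siPiezo2) in the read windows of 2000 bp around the peaks, as recovered from the deposited densities. The member peaks rested on 21 to 440 reads in NC and on 10 to 215 in siPiezo2. Values below are the authors' normalized read densities in reads per kb, and ratios are log2((siPiezo2 + 1)/(NC + 1)) of these densities, negative where siPiezo2 was lower. Brackets hold exact (Clopper-Pearson) 95% binomial intervals from the reads, which cover counting error only. Neighbouring windows that overlap count shared reads more than once, and the intervals of genes with such peaks are therefore too narrow. Peaks called in both libraries scattered with 2.08 times the variance of counting, and where intervals widened for that scatter are used, this is said. A peak or gene counted as lower below 0.66 of NC and as higher above 1.5 of NC. Fewer cells with an open site and less opening per cell cannot be told apart in such libraries.

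Summed over the 59 peaks, the density at the LIM and PDZ-LIM genes was 2246 in NC and 1820 in siPiezo2, a log2 ratio of -0.30 (-0.37 to -0.24). It was -0.16 with median-of-ratios scaling and -0.17 over the peaks within 1 kb of a start site, both outside that interval. Of the 59 peaks 44 lay below 0 (74.6%, against 63.7% of all peaks). Lower past the threshold were 16 member peaks (27.1%), where 13.5% of all peaks were, and higher was 1, where 3.21% of all peaks were. Fhl2 held 6 of the 16, and 12 of the 16 were called in NC only. Without Fhl2, 10 of 49 peaks were lower (20.4%), and the summed ratio was -0.22. Weak peaks did not make up the members, since 41 of the 59 lay at or above the median density of all peaks and 24 in the strongest 25%. The exact intervals of 17 member peaks lay below 0 and those of 0 above it, and 10 of the 17 stayed below 0 with widened intervals. Intervals were not counted over all peaks, which also lay mostly below 0, so these counts set the members apart from nothing.

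**Figure D1:**
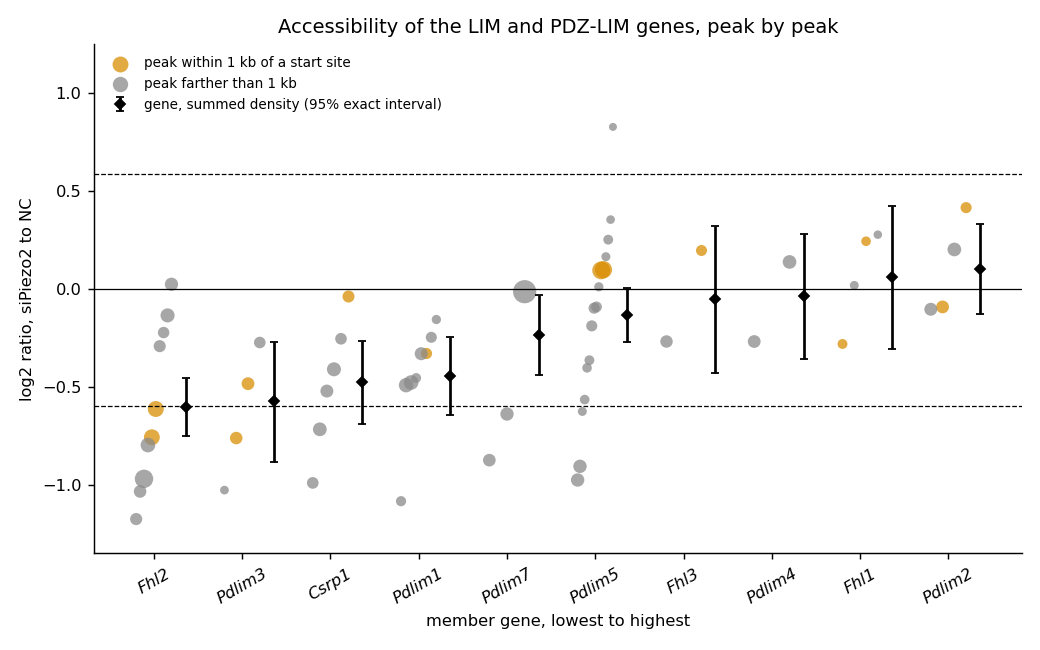
Log2 ratio of siPiezo2 to NC (vertical axis) at each of the 59 member peaks, by gene from lowest to highest; dot area grows with the density in NC, colour gives the distance from a start site, diamonds with bars give the gene's summed density with its 95% exact interval, and dashed lines mark 0.66 and 1.5 of NC. Fhl2 has 6 peaks under the lower line, and the single peak over the upper line belongs to Pdlim5.

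Gene by gene, the change was uneven. By summed density Fhl2 lay lowest at -0.60, followed by Pdlim3 (-0.57), Csrp1 (-0.48), Pdlim1 (-0.44), Pdlim7 (-0.23), Pdlim5 (-0.13), Fhl3 (-0.05) and Pdlim4 (-0.04), while Fhl1 (0.06) and Pdlim2 (0.10) lay above 0. Only Fhl2 passed the lower threshold, at 0.658 of NC, and it did so narrowly, with Pdlim3 at 0.672 just outside. That is 1 of 10 genes, where 6.21% of all genes were lower, and 0 of 10 were higher, where 1.54% of all genes were. With at least 1 lower peak were 6 of the 10 (Fhl2, Pdlim3, Csrp1, Pdlim1, Pdlim7 and Pdlim5), against 21.7% of all genes, and with at least 1 higher peak 1 of the 10, against 6.5%. The shares with at least 1 such peak grow with the number of peaks per gene, of which the members had a median of 4 and all genes of 2. The share of genes lower by summed density falls with it instead, from 8.31% with 1 peak to 0.99% with 10 or more. A lower peak was found in 24.4% of genes with 2 to 4 peaks and in 2 of the 6 members of that size. It was found in 58.1% of genes with 5 to 9 peaks and in both members of that size (Csrp1 and Pdlim1), and in 84.3% of genes with 10 or more and in both such members (Fhl2 and Pdlim5).

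The median over the 10 genes was -0.18 and that over all genes -0.093, so that the typical member lay 0.09 below the typical gene (a difference of -0.09). The median over genes falls with their number of peaks, from -0.061 with 1 peak to -0.16 with 10 or more. Since 0 members had 1 peak, this difference sets genes of unlike peak number beside each other. The scaling of the libraries moved the medians of the members and of all genes. Under median-of-ratios scaling, the median of all genes shifted by 0.14 to 0.043 and that of the members to -0.04, and Fhl3, Pdlim4 and Pdlim5 lay above 0, which left 5 of 10 genes below 0. The distance between members and all genes was -0.09 there too. It was -0.22 with the recovered reads at the same total, 0.02 with peaks within 1 kb of a start and -0.0034 with peaks nearest a start of their own gene. Fhl3 and Pdlim4 also lay above 0 with the same total density and with the recovered reads at the same total. Fhl2 lay 0.51 below the median gene in the deposited scaling (-0.51) and at -0.51 from it with median-of-ratios scaling. Among the 4 lowest genes, the sums of Fhl2, Pdlim3 and Csrp1 rest largely on peaks called in NC only. The place of such peaks in the table depends on their NC signal. Of the Pdlim1 peaks, 4 of 8 were called in both libraries. Over the peaks called in both libraries alone, Fhl2 had -0.76 (3 of its 10 peaks), Pdlim1 -0.37 (4 of 8), Pdlim3 -0.27 (1 of 4) and Csrp1 -0.25 (2 of 6), where the median of all genes was 0.0086.

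Fhl2 encodes the FHL protein of heart and of activated fibroblasts, a cofactor of serum response factor and of β-catenin. Its 10 peaks on chromosome 1 summed to a density of 519 in NC (1315 reads) and 341 in siPiezo2 (526 reads), a log2 ratio of -0.60 (-0.75 to -0.46). The start peak (GRCm39 chr1:43202679-43203457, 5′ UTR) reached from 336 bp upstream to 442 bp downstream of the start of ENSMUST00000008280, the start of the first sequence printed above. Its density was 67.3 in NC and 39.4 in siPiezo2, a log2 ratio of -0.76 (-1.21 to -0.33). The peak beside it in intron 1, centred 718 bp into the gene, had 68.1 and 44.2, a log2 ratio of -0.61 (-1.04 to -0.20). Both start peaks were thus lower, although their read windows share reads since the centres are 665 bp apart.
Inside the Fhl2 gene, the lowest ratio of all member peaks stood in intron 1, 9292 bp from the start, with a density of 35.3 in NC and 15.1 in siPiezo2 (-1.17, interval -1.89 to -0.51). A peak in intron 2 had 38.5 and 18.3 (-1.03, interval -1.69 to -0.42). A peak annotated as 5′ UTR, 22166 bp from the start, had 55.9 and 31.8 (-0.80, interval -1.30 to -0.32). These 3 peaks were called in NC only. The strongest Fhl2 peak, in intron 5 of 5, was called in both libraries and had a density of 94.2 and 47.6 (-0.97, interval -1.37 to -0.58). The start site nearest to that peak belongs to another gene, and without it Fhl2 had a summed ratio of -0.53, short of the threshold.
The other 4 Fhl2 peaks were not past the threshold. A peak in intron 3 had 30.2 in NC and 25.7 in siPiezo2 (-0.22). The 3 peaks that lie 4856, 5404 and 5975 bp upstream of the start, within intron 1 of a transcript that starts farther upstream, had 43.9 and 44.6 (0.02), 50.9 and 46.3 (-0.14), and 35.1 and 28.5 (-0.29), and their read windows overlap too. From the start into the gene 6 of 7 peaks were therefore lower past the threshold, and upstream of it 0 of 3 were. Without peaks that share read windows (6 left), Fhl2 had -0.66. Its ratio did not pass the threshold with median-of-ratios scaling (-0.46), with the same total density (-0.52) or with the recovered reads at the same total (-0.58).

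**Figure D2:**
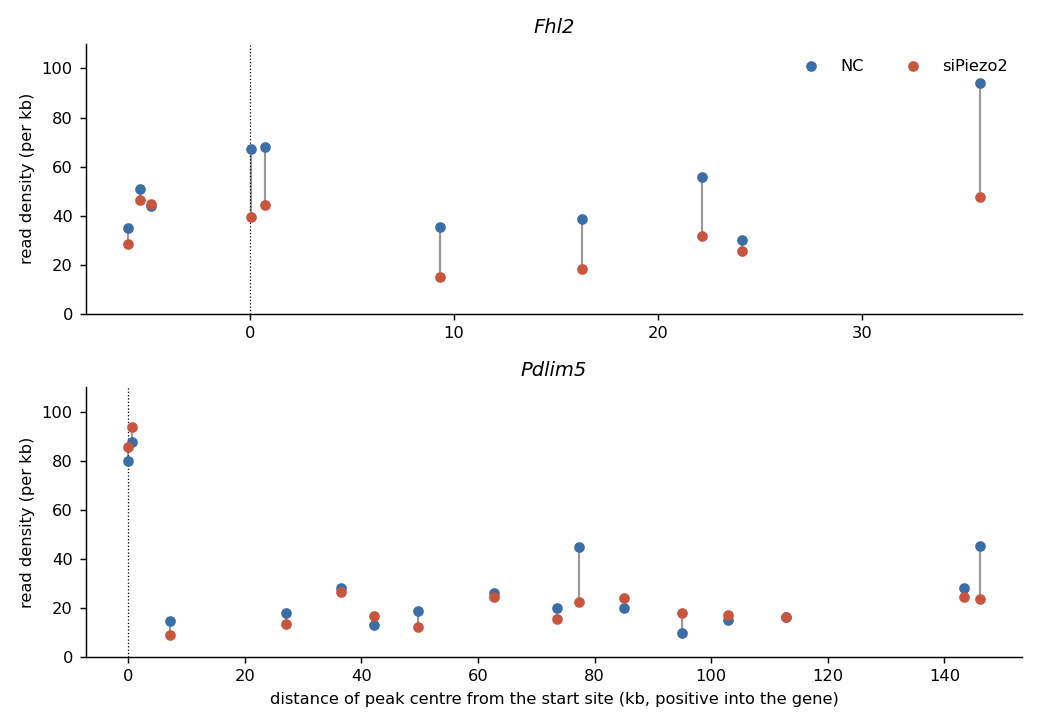
Normalized read density (vertical axis, per kb) of each peak of Fhl2 (top) and Pdlim5 (bottom) against the distance of its centre from the start site (horizontal axis, kb, positive into the gene), with NC in blue, siPiezo2 in red and a grey line joining the same peak. At the Fhl2 start the density lies at 67.3 in NC and 39.4 in siPiezo2, while the Pdlim5 start peaks lie at 79.8 and 85.5 and at 87.7 and 93.7.

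Fhl1 and Fhl3, the other FHL genes of the members, differed little between the libraries. Fhl1 encodes the FHL protein most abundant in striated muscle. It had 4 weak peaks on the X chromosome, with 65.2 in NC and 68.0 in siPiezo2 in all and a log2 ratio of 0.06 (-0.31 to 0.42). Its peak 304 bp upstream of one start had a density of 18.5 and 22.0 (0.24), and the peak 125 bp upstream of another start had 20.3 and 16.5 (-0.28). The intron 2 peak had 12.2 and 15.0 (0.28), the highest of the 4, and the intron 6 peak 14.3 and 14.5 (0.02). Every Fhl1 peak had an interval that spans 0.
Fhl3 encodes an FHL protein that binds actin in stress fibres. Its peak 294 bp upstream of the start had 27.2 in NC and 31.4 in siPiezo2 (0.20, interval -0.36 to 0.75), and its intron 1 peak had 37.7 and 31.2 (-0.26, interval -0.79 to 0.25). Summed, Fhl3 had 64.9 and 62.6, a log2 ratio of -0.05 (-0.43 to 0.32). The ratio of Fhl2 lay below that of Fhl1 by 0.66 (interval of Fhl1 minus Fhl2, 0.27 to 1.06) and below that of Fhl3 by 0.55 (0.15 to 0.95). Widened, the first interval excluded 0 (0.09 to 1.23) and the second did not (-0.03 to 1.13).

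Among the PDZ-LIM genes with 1 LIM domain, Pdlim3 and Pdlim1 had a ratio below 0 at every peak. Past the threshold were 2 of 4 peaks of Pdlim3 and 1 of 8 of Pdlim1. Pdlim3 encodes the actinin-associated LIM protein of the Z disc. Its start peak, centred 78 bp upstream of a start 26 bp away from that of the printed window, had a density of 40.5 in NC and 28.7 in siPiezo2 (-0.48, interval -1.02 to 0.04). The intron 1 peak centred 483 bp past a second start had 38.2 and 22.1 (-0.76, interval -1.37 to -0.19), in a read window that overlaps the first. An intron 2 peak was weak, with 13.5 and 6.11 (29 and 10 reads, -1.03, interval -2.23 to 0.05), and an intron 3 peak had 31.4 and 25.8 (-0.27). Summed, Pdlim3 had 124 and 82.7, a log2 ratio of -0.57 (-0.88 to -0.27). Of its 4 peaks 3 were called in NC only, and the intron 3 peak, called in both libraries, had -0.27.
Pdlim1 encodes an α-actinin-binding protein of stress fibres. All 8 of its peaks lay below 0, of which 1 passed the threshold, a peak in intron 4 with a density of 22.0 in NC and 9.85 in siPiezo2 (-1.08, with an interval below 0). A pair of stronger peaks in the same intron, whose windows overlap, had 55.8 and 39.8 (-0.48) and 54.3 and 38.4 (-0.49), each with an interval below 0. The peak 48 bp upstream of a start site had 28.4 and 22.5 (-0.32, interval -0.95 to 0.28), and the exon peak that changed least had 16.3 and 14.5 (-0.16). Summed, Pdlim1 had 266 and 195, a log2 ratio of -0.44 (-0.64 to -0.25).

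The other genes with 1 LIM domain, Pdlim4 and Pdlim2, stood near 0. Pdlim4 encodes an actinin-binding regulator of actin bundles. Its 2 peaks in intron 2 had a density of 47.3 in NC and 52.2 in siPiezo2 (0.14, interval -0.29 to 0.56) and of 40.3 and 33.2 (-0.27, interval -0.78 to 0.23). Summed, Pdlim4 had 87.6 and 85.4, a log2 ratio of -0.04 (-0.36 to 0.28).
Pdlim2 encodes an actin-associated protein that also acts in the nucleus as a ubiquitin ligase for inflammatory transcription factors. Its peak 67 bp from a start, in a 5′ UTR, had 28.2 in NC and 37.9 in siPiezo2 (0.41, interval -0.11 to 0.94), the highest ratio at a start site among the members. The peak 156 bp upstream of another start had 40.4 and 37.9 (-0.09), its neighbour 41.5 and 38.6 (-0.10), and the exon peak 47.6 and 54.9 (0.20). Summed, Pdlim2 had 158 and 169, a log2 ratio of 0.10 (-0.13 to 0.33), and Fhl2 lay below it by 0.70 (0.43 to 0.98).

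The PDZ-LIM genes with 3 LIM domains, Pdlim5 and Pdlim7, had strong peaks that hardly differed beside weaker ones that were lower. Pdlim5 encodes the Enigma homologue, a scaffold for protein kinases at the Z disc and at stress fibres. Its start peak (GRCm39 chr3:142101223-142101670, 5′ UTR, from 216 bp upstream of the start) had a density of 79.8 in NC and 85.5 in siPiezo2 (0.10, interval -0.23 to 0.42). The neighbouring peak in intron 1 had 87.7 and 93.7 (0.09, interval -0.22 to 0.40). Both start peaks were among the strongest of the members, and neither was lower in siPiezo2.
Farther along Pdlim5, 1 of 2 peaks in intron 9 had a density of 45.1 in NC and 23.6 in siPiezo2 (-0.91, interval -1.48 to -0.36) and the other 27.9 and 24.4 (-0.19), and a peak in intron 3 had 44.8 and 22.3 (-0.98, interval -1.57 to -0.41). The lower intron 9 peak and this intron 3 peak were called in both libraries. Another lower peak, in intron 2, was weak with 14.5 and 9.08 (-0.63, interval -1.62 to 0.30). The single higher member peak stood in intron 7, with 9.59 and 17.8 (21 and 30 reads, 0.83, interval -0.03 to 1.70), and it was the only member peak called in siPiezo2 alone. The other 9 Pdlim5 peaks lay between these, and the 16 together summed to 484 and 442, a log2 ratio of -0.13 (-0.27 to 0.0045). The Pdlim5 ratio lay 0.47 above that of Fhl2 (0.27 to 0.67, widened 0.18 to 0.76).
Pdlim7 encodes Enigma, an actinin- and tropomyosin-binding protein of the cytoskeleton. Its peak in intron 2, the strongest of all members and called in both libraries, had a density of 155 in NC and 154 in siPiezo2 (440 and 215 reads, -0.01, interval -0.26 to 0.22). Its other 2 peaks lie downstream of the gene, with 39.1 and 20.9 (-0.87, interval -1.49 to -0.29) and 44.4 and 28.1 (-0.64, interval -1.18 to -0.12). They overlap in their windows and lie closer to the start of Dbn1, the gene of the actin-binding protein drebrin, whose own 4 peaks had a summed ratio of -0.03 with 1 of them lower at -0.70. The Pdlim7 sum of 239 and 203, a log2 ratio of -0.23 (-0.44 to -0.03), therefore rested on these 2 peaks, and its widened interval spanned 0 (-0.53 to 0.06).

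Csrp1 encodes a LIM protein that binds α-actinin and zyxin. Its start peak (GRCm39 chr1:135656785-135657035, 5′ UTR) had a density of 34.5 in NC and 33.7 in siPiezo2 (-0.03, interval -0.56 to 0.48). The peak 2366 bp upstream, in intron 1 of a transcript that starts farther upstream, had 32.0 and 15.6 (-0.99, interval -1.70 to -0.32). An intron 2 peak had 48.1 and 28.9 (-0.72, interval -1.24 to -0.21), its overlapping neighbour 41.7 and 28.7 (-0.52), and the remaining intron 1 peaks -0.41 and -0.25. Summed, Csrp1 had 238 and 171, a log2 ratio of -0.48 (-0.69 to -0.27), which became -0.25 over the peaks called in both libraries and -0.03 within 1 kb of a start. All 6 Csrp1 peaks lay below 0, and the peak at the start lay closest to 0.

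**Figure D3:**
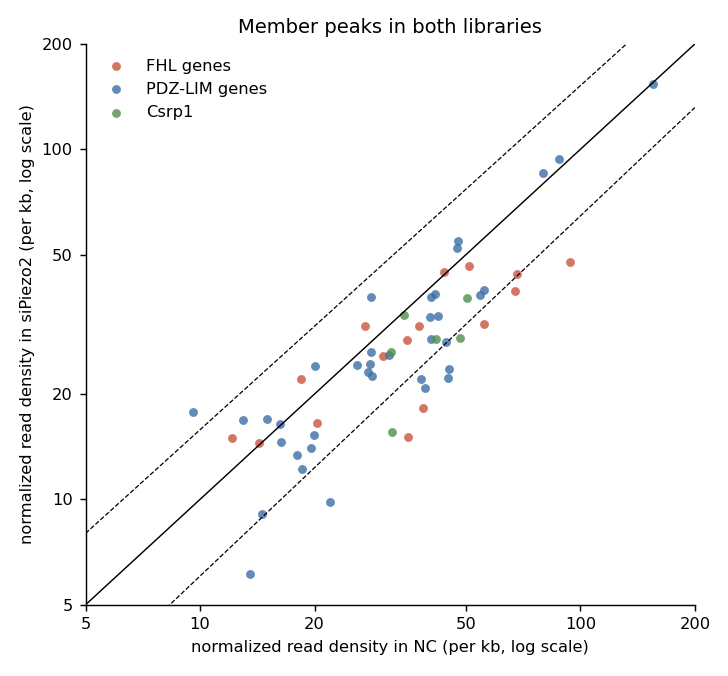
Normalized read density of the 59 member peaks in NC (horizontal axis) and siPiezo2 (vertical axis), both per kb on log scales, coloured by family; the solid line marks equal density and the dashed lines 0.66 and 1.5 of NC. The Pdlim7 peak at 155 and the Pdlim5 peaks at 87.7 and 79.8 in NC lie on or near the line of equality, while the Fhl2 peak at 94.2 in NC lies at 47.6 in siPiezo2.

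Compared by family, the 3 FHL genes summed to a ratio of -0.46 (-0.59 to -0.33) with 6 of 16 peaks lower (37.5%), all in Fhl2, and the 6 PDZ-LIM genes to -0.21 (-0.29 to -0.12) with 8 of 37 lower (21.6%), where 13.5% of all peaks were. Fhl2 makes up most of the FHL sum, and by the median gene the order was the reverse, with -0.05 for FHL and -0.18 for PDZ-LIM. The PDZ-LIM genes with 1 LIM domain had -0.25 (-0.38 to -0.13), and those with 3 had -0.17 (-0.28 to -0.05). Between neighbours in the order of the 10 genes, 0 of 9 differences had an interval off 0, which the sorting by the same ratio largely fixes. Fhl2 is compared here as the lowest of the 10, which favours large differences, and with intervals that are too narrow for its shared windows, so the following describes the values only. Its difference from 6 of the other 9 genes (Pdlim7, Pdlim5, Fhl3, Pdlim4, Fhl1 and Pdlim2) had an interval above 0, and that from 5 of these when widened, Fhl3 being the exception and Pdlim7 at the edge with a lower bound of 0.0036. Even by these intervals it could not be told from Pdlim3 (a difference of 0.03, interval -0.31 to 0.37), Csrp1 (0.13, interval -0.13 to 0.39) or Pdlim1 (0.16, interval -0.09 to 0.41).

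By position, 13 member peaks lay within 1 kb of a start site and 46 farther away. Near starts 3 of 13 were lower, where 6.43% of all such peaks were, and these were both Fhl2 start peaks and 1 of Pdlim3. The median near starts was -0.09 for the members and -0.042 for all peaks. Farther away 13 of 46 were lower (28.3%, against 15.7% of all such peaks), with medians of -0.28 and -0.17. Of the 43 intron peaks of the members 12 were lower, where 14.8% of all intron peaks were, with a median of -0.29 against -0.17. Without Fhl2, 1 of 11 near peaks and 9 of 38 farther peaks were lower.
The members were called in NC only at 34 peaks (57.6%, against 64.0% of all peaks), in both libraries at 24 (40.7%, against 33.8%) and in siPiezo2 only at 1. At the peaks called in both, which are those on which the authors' scaling is centred, the median was -0.19 for the members and 0.0025 for all peaks, and 4 of the 24 were lower (16.7%, against 5.36% of all peaks called in both), a pair in Fhl2 and a pair in Pdlim5. Without Fhl2 the median there was -0.10, and 2 of 21 were lower (9.52%). The other 12 of the 16 lower member peaks were called in NC only, 12 of 34 (35.3%, against 18.3% of all peaks called so). A peak called in NC only was listed because of its signal in NC, so a lower value in siPiezo2 is partly built into that class, and its count gives no support to a difference.

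**Figure D4:**
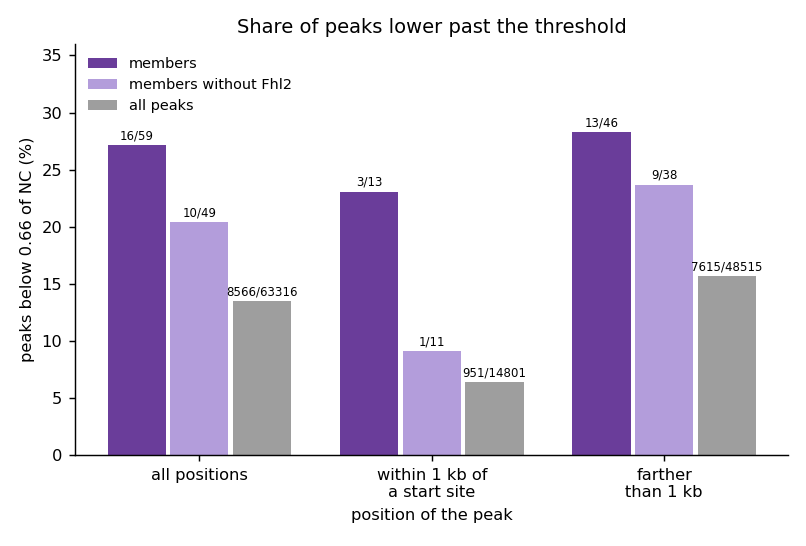
Share of peaks below 0.66 of NC (vertical axis, percent) for the members, the members without Fhl2 and all peaks, at all positions, within 1 kb of a start site and farther away, with the counts over the bars. The members' bars stand at 27.1%, 23.1% and 28.3%, those of all peaks at 13.5%, 6.43% and 15.7%, and the near bar drops to 9.09% without Fhl2.

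Related genes were read from lists that describe the same pathway. Of the closest relatives of the members, 7 of 9 had a peak, their median ratio was -0.29, and 0 were past a threshold. Csrp2, a smooth muscle relative of Csrp1, was lowest with a summed density of 124 and 85.2 (-0.54), then Fhl4 (-0.35), and Csrp3 (-0.10) and Crip2 (0.05) were highest. All 30 other LIM genes of the cytoskeleton and adhesions had a peak, with a median of -0.20, 25 below 0 and 1 lower, where 62.6% of all genes lay below 0 and 6.21% were lower. That gene was Tgfb1i1, which encodes Hic-5, a LIM adaptor of focal adhesions induced by TGF-β, with 122 in NC and 72.4 in siPiezo2 (-0.74). Trip6 followed at -0.52, and Limk1 (0.28) and Zyx (0.25), the gene of zyxin, lay highest. Of the binding partners 9 of 10 had a peak, with a median of -0.27 and 0 past a threshold, from Tpm2 (-0.55) and the α-actinin gene Actn4 (-0.54) to Actn2 (-0.07) and Flnc (0.09). The members themselves spanned -0.60 to 0.10.
For reference, and against the same 6.21% of all genes, the 8 myofibroblast markers had a median of -0.68 with 4 lower (Acta2 at -1.91, Myl9 at -1.08, Tagln at -0.98 and Fn1 at -0.87) and Cnn1 (0.04) and Col1a1 (-0.44) highest. The 5 of 6 resting fibroblast markers with a peak had a median of -0.03, with Pdgfra (-0.16) and Tcf21 (-0.03) lowest, Dcn at 0.21 and Cd34 higher past the threshold at 0.60 on 31 and 35 reads. The 10 housekeeping genes had a median of -0.34 with 4 lower (Actb at -0.87, Hprt at -0.81, B2m and Tbp at -0.61) and Gapdh (0.06) and Ywhaz (0.12) highest. The housekeeping median thus lay below the members' median of -0.18, and nothing particular to the LIM and PDZ-LIM genes can be read from their median. The same holds for their share of lower peaks (27.1%), since 15 of 54 peaks of the binding partners (27.8%) and 7 of 19 of the housekeeping genes (36.8%) were lower, besides 4 of 20 of the closest relatives and 22 of 212 of the other LIM genes (10.4%). Srf, the gene of serum response factor, had a summed ratio of -0.13 (-0.40 to 0.13).

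**Figure D5:**
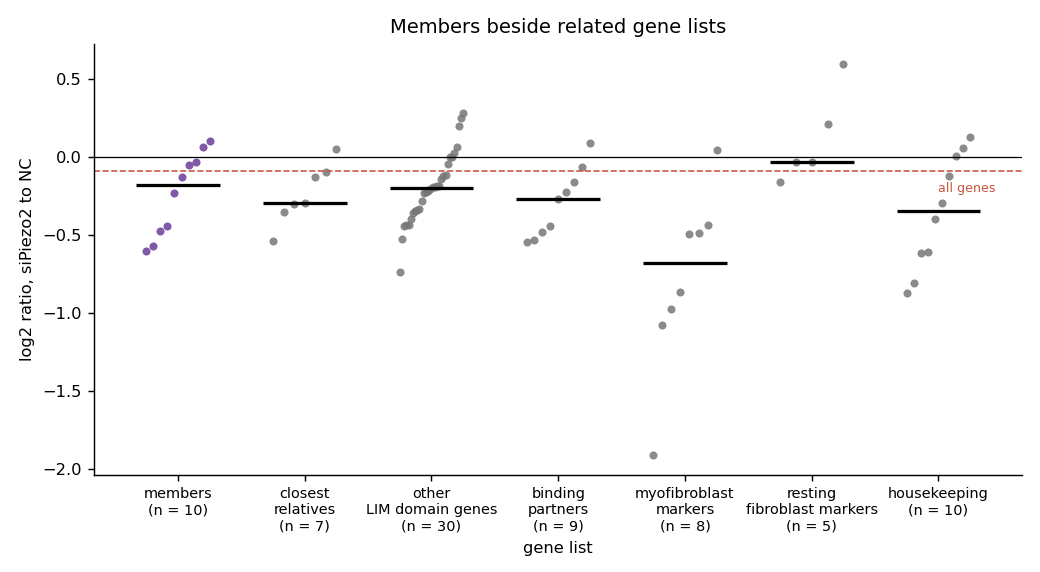
Log2 ratio of siPiezo2 to NC by summed density (vertical axis) for each gene (dot) of the members and of 6 related lists (horizontal axis), with black bars at the medians and a dashed line at the median of all genes (-0.093). The members span -0.60 to 0.10, the myofibroblast markers reach down to -1.91, and the housekeeping genes have a median of -0.34.

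For the labelled cell type, markers were read by whether they had a peak, since accessibility is not a transcript level. Such peaks did not set the cell types apart, because the shares for fibroblast, endothelial and smooth muscle markers were similar, so the label was not checked by them. Fibroblast markers had a peak at 7 of 8 genes (summed density 708 in NC and 580 in siPiezo2), and cardiomyocyte markers at 4 of 8, with Myh6, Tnni3, Ttn and Pln at 0 peaks (356 and 308). Endothelial markers had one at 5 of 6 (376 and 405, Tie1 at 0), macrophage and leukocyte markers at 3 of 6 (180 and 168, Adgre1, Cd68 and Lyz2 at 0), and smooth muscle and pericyte markers at 4 of 5 (450 and 365, Kcnj8 at 0). The median ratio was 0.0068 over the endothelial markers, with Cdh5 higher at 0.70, Emcn at 0.41, and Kdr (-0.10) and Tek (-0.06) below 0. It was -0.36 over the smooth muscle and pericyte markers, with Rgs5 lower at -1.16, Notch3 at -0.50, Myh11 at -0.23 and Cspg4 at 0.16. The fibroblast markers had a like median of -0.37, the macrophage and leukocyte markers -0.24 and the cardiomyocyte markers -0.03. The part of these cell types in the member values was not tested. Piezo2 itself had 334 and 242 (-0.46). An siRNA acts on the transcript, so this value does not check the knockdown.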

How the data were processed

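The authors deposited 1 table with a signal column per library, the read density per kb of each peak. Its columns are those of an MA normalization, which scales the libraries by a linear fit over peaks called in both. BWA 0.7.12 and mm10 are named in the submitters' processing notes, whereas the table's scaffolds carry GRCm39 names, so peak positions are given as GRCm39 and promoters separately as GRCm38.p6. The authors' own comparison columns (log2 ratio, mean log2 density, p-value) were not used. Densities were summed per gene over assigned peaks, with a pseudocount of 1. Whole reads were recovered from the densities for 100% of peaks (within 0.05 read), less 1 read that the method adds per window. Differences between genes have exact conditional intervals of the ratio of ratios.

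The members and lists were chosen with earlier results of these data known, and the lists (closest relatives, other LIM genes, binding partners, myofibroblast, resting fibroblast, housekeeping and cell type markers) support nothing by themselves. Named were all members, their peaks nearest a start and with the lowest and highest ratio, further peaks of genes with a wide spread, and from each related list the genes past a threshold and the 2 lowest and 2 highest. Cell type markers, Dbn1, Srf and Piezo2 were named for reference. Alternatives covered the pseudocount (0.1), scaling, peak choice and a fold of 2, and 2 were added after seeing the data. The recovery of reads and the intervals of single peaks were tested on simulated counts. Those counts had neither the extra scatter nor the shared windows of these data. Intervals of gene sums, of differences and widened intervals were not simulated. Scripts ran in Python 3.11.15 with scipy 1.17.1, pandas 2.3.3, matplotlib 3.10.9 and numpy 2.4.6.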

Additional observations from a re-analysis of the deposited data

How the results depend on the processing

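The summed member ratio of -0.30 became -0.16 with median-of-ratios scaling, -0.21 at the same total density, -0.17 with peaks within 1 kb of a start, -0.18 with the strongest peak of each gene, -0.22 with peaks called in both libraries and -0.22 without Fhl2. The median over member genes of -0.18 became -0.044 with median-of-ratios scaling, -0.095 at the same total density, -0.020 with peaks within 1 kb and -0.092 with peaks nearest a start of their own gene. The 1 gene lower past the threshold became 0 with median-of-ratios scaling, the same total density, recovered reads at the same total, a fold of 2, peaks nearest a start of their own gene and without Fhl2, and 2 with peaks within 1 kb. The 16 lower peaks became 3 within 1 kb, 1 with the strongest peaks, 4 when called in both, 4 at a fold of 2 and 10 without Fhl2. The 1 higher peak became 3 with recovered reads and 0 within 1 kb, with the strongest peaks, with peaks at or above the median density, when called in both and at a fold of 2. Fewer peaks enter the restricted settings by construction, and for the scalings the cause was not tested. The settings without Fhl2 and with peaks nearest their own gene's start were chosen after seeing the data.

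Of 106 gene values, 25 were unchanged by construction. Of the other 81, 71 moved by less than their counting error (the reach of the interval to either side), 10 moved by more, and 0 whose interval lay off 0 changed sign. The 10 were Pdlim5 (0.0074 with median-of-ratios scaling, 0.097 within 1 kb, 0.095 by its strongest peak), Csrp1 (-0.034 within 1 kb, -0.25 when called in both), Fhl2 (-0.97 by its strongest peak, -0.76 when called in both) and Pdlim7 (-0.014 by its strongest peak, when called in both and with peaks nearest its own start). Pdlim4 and Pdlim7 have no peak within 1 kb of a start, and Fhl1 has none at or above the median density. The median peak of the members held 85 and 41 reads, which limits single peaks. No paired analysis was possible because each group has 1 library.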

Other observations

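The peak table leaves distal intergenic peaks without a gene, so they are no members. Of these, 8 lie nearest to a start site of a member, between 8767 and 44373 bp away. All 8 had a log2 ratio below 0 (median -0.36), as did 66.3% of all distal intergenic peaks (median -0.18), and 0 were lower past the threshold, where 16.6% of all distal intergenic peaks were. The strongest lies 44373 bp upstream of Pdlim5, with a density of 73.7 in NC and 49.1 in siPiezo2 (-0.57, interval -0.98 to -0.18), beyond the Pdlim5 start peaks that lay at 0.10 and 0.09. Pdlim5 had 2 more such peaks (-0.37 and -0.35), Pdlim3 2 (-0.56 and -0.35), Fhl1 2 (-0.55 and -0.08) and Csrp1 1 (-0.30), each with an interval that spans 0.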
